A study of Mus musculus with 4 samples.

Results

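Speer1, Gm5861, Speer4c, Speer4e, Gm10220, Gm10354 and Gm17019 are 7 of the 18419 genes measured in single cells of mouse testis. They were picked on results of these data, because Speer1 and Gm5861 differed between the control library and the library of mice given alginate oligosaccharides (AOS), and because the other 5 marked one group of germ cells. All 7 were found in the table. The cells came from ICR mice, an outbred stock. The 4 groups were A0 (neither busulfan nor AOS), A10 (AOS at 10 mg/kg body weight), B0 (busulfan alone) and BA10 (busulfan, then AOS at 10 mg/kg). Busulfan is an alkylating drug that depletes germ cells, and AOS are short sugar chains made from brown algae. Each group was 1 library made from the testes of several young mice pooled before capture. A difference between groups therefore has no replicate check, and treatment, animals and library preparation cannot be told apart.

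The Speer genes encode spermatogenesis-associated glutamate-rich proteins. They form a multicopy family of rodents that arose from a partial copy of Dlg5, a scaffold gene, and they are known as genes of the testis germ line. During spermatogenesis, spermatogonia give rise to spermatocytes, which pass through meiosis to form round spermatids, and these elongate into sperm. Little is known of what the individual proteins do, so the members are described here in their 2 sequence groups, Speer1 with Gm5861 and the other 5.

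All 7 genes lie on chromosome 5 (mm10), and each has 5 exons in its longest annotated transcript. Speer1 (ENSMUSG00000095829, chr5:11341516-11346286, plus strand) and Gm5861 (ENSMUSG00000095918, chr5:11183072-11187810, plus strand) are 153706 bases apart. The other 5 are on the minus strand. They are Speer4e (ENSMUSG00000091255, chr5:14933221-14938429), Gm10354 (ENSMUSG00000072188, chr5:14974113-14978935), Gm17019 (ENSMUSG00000091897, chr5:15028950-15032998), Speer4c (ENSMUSG00000073208, chr5:15709501-15714271) and Gm10220 (ENSMUSG00000067698, chr5:26114764-26121421). The Speer1 and Gm5861 transcripts were 98.4% identical over 1096 bases. The other 5 were 87.8% to 97.5% identical to each other and 71.5% to 73.6% identical to Speer1 or Gm5861.

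The stretches before the start sites fell into the same groups, and they are shown because the 2 groups of genes also had different patterns across cells. RefSeq promoter sequences on GRCm38.p6 (250 bases before and 50 after each start) were matched for all 7 members. The Speer1 and Gm5861 promoters were 95.4% identical over 285 bases. The other 5 were 95.6% to 98.7% identical to each other, and across the 2 groups identity was 77.0% to 85.6% over at most 204 aligned bases. The 250 bases before the start are printed below 5′ to 3′ for Speer1, Gm5861 and Speer4e. In the first pair, capitals mark the longest run shared letter for letter, of 90 bases, which 3 of 32851 promoters held (Speer1, Gm5861 and Gm6460). In Speer4e they mark the longest run shared by the other 5, of 33 bases, which 17 promoters held.
Speer1 (chr5:11341211-11341460, plus strand): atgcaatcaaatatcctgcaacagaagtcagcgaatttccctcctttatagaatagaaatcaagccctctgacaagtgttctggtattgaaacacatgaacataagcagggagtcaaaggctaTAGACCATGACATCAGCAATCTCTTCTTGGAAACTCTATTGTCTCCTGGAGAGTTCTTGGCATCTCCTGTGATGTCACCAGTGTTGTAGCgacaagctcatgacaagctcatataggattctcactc
Gm5861 (chr5:11182765-11183014, plus strand): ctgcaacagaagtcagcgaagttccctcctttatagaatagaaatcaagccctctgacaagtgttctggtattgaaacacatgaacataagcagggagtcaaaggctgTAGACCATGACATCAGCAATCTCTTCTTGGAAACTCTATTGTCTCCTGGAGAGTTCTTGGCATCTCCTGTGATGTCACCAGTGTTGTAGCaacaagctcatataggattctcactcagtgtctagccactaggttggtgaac
Speer4e (chr5:14938476-14938725, minus strand): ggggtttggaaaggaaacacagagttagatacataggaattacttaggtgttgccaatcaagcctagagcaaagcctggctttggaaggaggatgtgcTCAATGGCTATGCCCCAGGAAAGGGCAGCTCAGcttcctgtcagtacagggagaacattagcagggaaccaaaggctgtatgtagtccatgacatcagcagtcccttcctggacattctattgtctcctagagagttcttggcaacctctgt

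One run of 21 bases was common to all 7 members, and it is shown because it was the longest stretch that joined the 2 groups. It is in capitals in the 30-base windows printed below.
Speer1 (chr5:11341398-11341427, plus strand): tcctGTGATGTCACCAGTGTTGTAGcgaca
Gm5861 (chr5:11182937-11182966, plus strand): tcctGTGATGTCACCAGTGTTGTAGcaaca
Speer4c (chr5:15714248-15714277, minus strand): ctctGTGATGTCACCAGTGTTGTAGtgaca
Speer4e (chr5:14938452-14938481, minus strand): ctctGTGATGTCACCAGTGTTGTAGtgaca
Gm10220 (chr5:26121396-26121425, minus strand): ctccGTGATGTCACCAGTGTTGTAGtgaca
Gm10354 (chr5:14978921-14978950, minus strand): ttctGTGATGTCACCAGTGTTGTAGtgaca
Gm17019 (chr5:15032984-15033013, minus strand): ctctGTGATGTCACCAGTGTTGTAGtgaca

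The run lay 59 bases before the RefSeq start in Speer1, 74 before it in Gm5861, 47 before it in Gm10354, 2 before it in Speer4c, Speer4e and Gm17019, and 4 after it in Gm10220. Of 32851 promoters searched on both strands, 24 held the whole run (0.0731%). Every one of the 24 symbols was a member, a Speer gene, a gene model with a Gm symbol or 5031410I06Rik. The run holds TGATGTCA, a motif chosen after the sequences were seen, which was in 3.62% of all promoters. TGACGTCA, the full cyclic AMP response element, was in none of the 7 and in 1.79% of promoters, and its 5-base part TGACG was in none of the 7 and in 20.8%. These are descriptions of letters in a window and say nothing of any factor.

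A UMI is a molecular tag that marks one captured transcript. The 4 libraries held 3778 to 9682 cells and 25323535 to 150812974 UMIs, with medians of 12685 (A0), 10948 (A10), 4214 (B0) and 17989 (BA10) UMIs per cell, and pairs of libraries shared 31 to 135 cell barcodes. Levels are given as UMIs per 1000000 of the library or of the cells named (CPM), with 95% intervals that cover counting error only. Cells were clustered with the family left out of the genes used. B0 stood apart in its cells: 62.4% of them were in a Leydig-like cluster led by Insl3 and Cyp17a1, and the 7 Leydig markers summed to 14526 CPM in B0, 399 in BA10, 7.74 in A0 and 10.2 in A10. The 8 round spermatid markers summed to 2494, 2184, 302 and 499.9 CPM in A0, A10, B0 and BA10, and no marker of any list was at 0. Levels set across the untreated and busulfan libraries therefore move with these shares of cell types, and fewer cells of a type and less RNA per cell cannot be told apart in a sum over all cells.

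Speer1 was at 30.8 CPM in A0, at 53.6 CPM in B0, at 108 CPM in A10 and at 211 CPM in BA10. These levels rest on 4648, 1357, 15489 and 19305 UMIs. In these sums over all cells A0 was the lowest library and BA10 the highest, and none of the 4 intervals overlapped. With each cell counted equally B0 was the lowest, at a log2 difference of -0.085 from A0. The A10 level was 3.50 times the A0 level (95% interval 3.38 to 3.61), which is 1.77 on the scale of log2(CPM + 1), the scale of every log2 difference here. Over cells of at least 9013 UMIs, of which B0 had 448, B0 (151 CPM) lay above A10 (116 CPM).

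Gm5861, its near copy, followed the same order over all cells. From lowest to highest it was at 9.85 CPM (A0), 19.0 CPM (B0), 25.6 CPM (A10) and 44.6 CPM (BA10), from 1486, 481, 3676 and 4068 UMIs. Over the cells of at least 9013 UMIs B0 was the highest library, at 51.6 CPM against 44.6 in BA10 and 26.4 in A10. A10 was 2.60 times A0 (2.44 to 2.76). Over all genes at 1 CPM or more in either library, 6 of 11362 (0.0528%) were at least 1 log2 unit higher in A10 and 12 (0.106%) at least 1 lower, and Speer1 was the highest and Gm5861 also among the 6. With 10 CPM added Gm5861 was short of the limit, at 0.84, and Speer1 was the 1 gene past it (1.53). Both genes were chosen by this comparison, so nothing is read from it. Just below the limit in the same ranking were Mog, at 0.94, and Atp6ap1l, at 0.92.

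**Figure D1:**
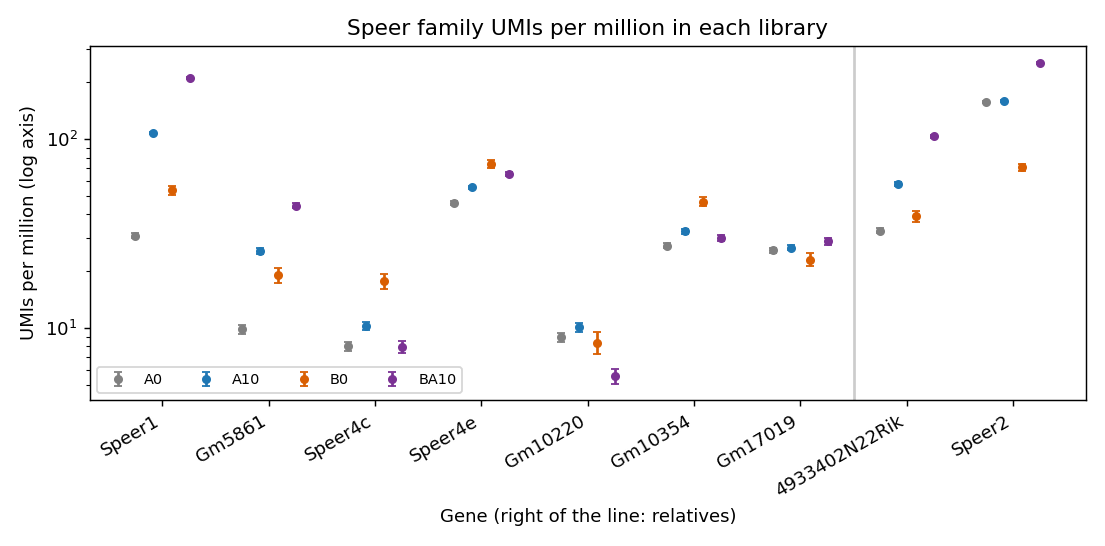
CPM (log axis) of each of the 7 members and of 2 relatives in the 4 libraries; points are library sums and bars 95% counting intervals. Speer1, Gm5861 and 4933402N22Rik are lowest in A0 and highest in BA10 in these sums, and the other 5 members have no common order.

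The other 5 members had other orders. In the order A0, A10, B0, BA10, Speer4e was at 45.9, 55.6, 74.0 and 65.7 CPM. Gm10354 was at 27.3, 32.5, 46.8 and 29.9 CPM in that order, and Speer4c at 8.02, 10.3, 17.7 and 7.91 CPM. All 3 were highest in B0. Gm10220 was at 8.96, 10.1, 8.33 and 5.54 CPM, lowest in BA10. Gm17019 varied least, at 25.9, 26.7, 23.1 and 28.8 CPM, and its A0 and A10 intervals overlapped. Summed, the 5 were at 116, 135, 169.9 and 138 CPM. A10 over A0 was 1.16 for this sum (1.14 to 1.19), against 3.50 for Speer1.

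The member medians in the 4 comparisons stood beside those of all genes as follows. In A10 over A0 the 7 members had a median log2 difference of 0.27 and all genes tested -0.02. In B0 over A0 the members' median was 0.75 and that of all genes 0.72; 1 member, Speer4c (1.05), was at least 1 higher, where 45.3% of all genes were, and none was at least 1 lower, where 18.8% were. That count depended on the cells and on the constant. Over cells of at least 9013 UMIs, all 7 members were at least 1 higher, from 1.06 for Gm10220 to 2.39 for Speer4c, where 23.8% of all genes were. With 10 CPM added in place of 1 no member was, with Speer4c at 0.62, where 22.9% of all genes were. In BA10 over B0 the medians were -0.17 and -0.64. Speer1 (1.96) and Gm5861 (1.19) were at least 1 higher there, with 14.1% of all genes, and Speer4c (-1.07) at least 1 lower, with 42.5%. Over the deeper cells Speer1 was at 0.48, where 1.05% of all genes were at least 1 higher, and 4 members (Speer4c, Speer4e, Gm10220 and Gm10354) were at least 1 lower, where 15.9% were. With 10 CPM added, Gm5861 was at 0.91 and Speer4c at -0.63, where 9.26% of all genes were at least 1 higher and 20.1% at least 1 lower. In BA10 over A0 the medians were 0.15 and 0.37; Speer1 (2.74) and Gm5861 (2.07) were at least 1 higher, with 15.5% of all genes, and no member at least 1 lower, where 17.2% were. These comparisons share libraries and are not independent of each other. Directions against B0 depended on how cells were weighted: with each cell counted equally, the log2 difference B0 over A0 was -0.085 for Speer1 and -0.51 for Speer4e, and BA10 over B0 was 0.28 for Speer4c. With only cells of at least 9013 UMIs, BA10 over B0 was -0.21 for Gm5861.

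The 2 groups of genes peaked in different clusters in A0, A10 and BA10. In B0, where 8 clusters had enough cells to be compared, all 7 members were highest in cluster 15. For each member this interval overlapped that of cluster 12. That cluster, with 55 B0 cells, was left unnamed because stromal genes (Dcn, Mgp and Cd34) were among its leading genes. Clusters 0, 2 and 21 were not among the 8. In the B0 cells of the spermatocyte-like cluster 11 the groups were apart. Speer1 was at 100.01 CPM there and the other 5 summed at 6.76 CPM, from 148 and 10 UMIs. In A0 and A10, Speer1 was highest in cluster 2, a spermatocyte-like cluster led by Pou5f2, a gene of meiotic germ cells, with a median of 29983 UMIs per cell. It stood at 103 CPM there in A0 (98.6 to 108) and at 359 in A10 (351 to 368). The next cluster was 16, also spermatocyte-like with Mlh3 and Pou5f2 among its leading genes, at 62.8 and 193 CPM. The intervals of clusters 2 and 16 did not overlap in either library. The scores of cluster 16 were low, at 0.231 for spermatocytes and 0.165 for elongating spermatids. Levels were lower in the round spermatid-like clusters, for example 25.8 and 87.2 CPM in cluster 1 and 13.2 and 27.1 in cluster 17. They were lowest in the elongating spermatid-like clusters 6 and 9, at 2.83 and 3.65 CPM in A0, and in the unnamed cluster 7, with 41 UMIs in A0. Of all Speer1 UMIs, 37.9% in A0 and 43.7% in A10 came from cluster 2, which held 5.88% and 6.21% of the cells.

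Gm5861 had the same leading clusters. It was at 25.5 CPM in A0 and 64.1 in A10 in cluster 2, and at 13.8 and 45.1 in cluster 16. Across the 48 sums of at least 50 cells of one cluster and library, Pearson's r of log2(CPM + 1) between Speer1 and Gm5861 was 0.97. These sums share libraries and depth, and the value is a description.

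The other 5 members were low in cluster 2. Speer4e was at 4.69 CPM in cluster 2 in A0 and at 5.42 in A10, against 182 (176 to 188) and 212 (205 to 219) in cluster 0. Cluster 0 was the highest cluster of all 5 in both libraries. In A0, Gm10354 was at 101, Gm17019 at 91.4, Gm10220 at 31.9 and Speer4c at 31.4 CPM there, and in A10 the same genes were at 119.8, 93.0, 31.5 and 40.9. In cluster 16, which also has Pou5f2 among its leading genes, Speer4e was at 40.1 CPM in A0 and 68.7 in A10, and the 5 together at 98.8 and 153 CPM. Their cluster 2 levels were 2.05% to 4.21% of their cluster 0 levels over both libraries, whereas the Speer1 level in cluster 2 was 283% of that in cluster 0 in A0 and 305% in A10. The 5 were picked for such a pattern, and these values are descriptions.

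Cluster 0 could not be named. It held 1545 A0 and 1473 A10 cells with a median of 9726 UMIs, and its marker scores for spermatocytes (0.166) and round spermatids (0.130) were close. Its leading gene outside the family rule was Gm21190, and Gm21149, Gm21663, Gm21680 and Gm9758 were among its 10 leading genes as well. These 5 are themselves relatives by transcript sequence. Of the 15 such relatives, 1 was among the 2000 genes that the clustering used, and with all of them left out the leading cluster held 22.1% of the members' summed A0 and A10 UMIs in place of 32.9%. That share was 14.6% at a finer resolution and 15.2% with A0 and A10 clustered alone.

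From cluster 0 the 5 were lower in each of 3 round spermatid-like clusters. In A0, Speer4e in cluster 1 was at 50.9% of its cluster 0 level, in cluster 4 at 19.9% and in cluster 5 at 11.1%. Gm10220 was at 59.5%, 33.3% and 16.4%. Speer genes outside the rule varied. Speer4d was close to the members, at 51.1%, 15.6% and 7.85% of its cluster 0 level, and Speer4a was at 28.6% in cluster 5. Speer4f1 in cluster 5 was still at 83.2% of its cluster 0 level, Speer4b at 82.7%, and Speer3 at 127%, with its highest level in cluster 17 (32.0 CPM in A0 and 32.9 in A10). Among the 10 pairs of the 5 members, r over the 48 sums was 0.91 to 0.98, and with Speer1 it was 0.42 to 0.52. The values of the same 5 with Speer4d (0.91 to 0.94), Speer4a (0.86 to 0.95) and Speer4b (0.83 to 0.93) overlapped those among the 5.

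**Figure D2:**
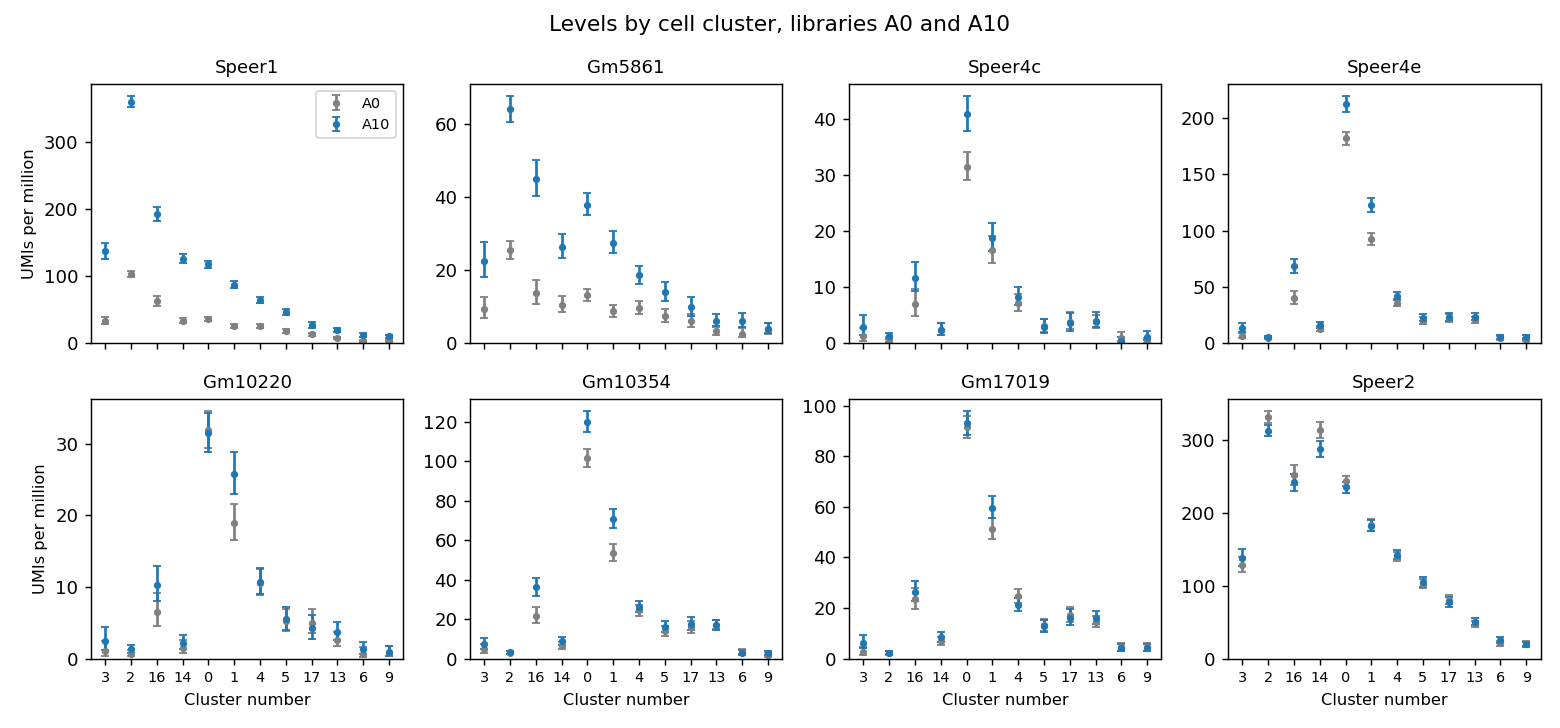
CPM of each member and of Speer2 in 12 numbered clusters of A0 and A10 cells, ordered from spermatocyte-like (3, 2, 16, 14) through cluster 0 and round spermatid-like (1, 4, 5, 17, 13) to elongating spermatid-like (6, 9); bars are 95% counting intervals. Speer1 and Gm5861 peak in cluster 2 and are higher in A10, the other 5 peak in cluster 0, and Speer2 is alike in both libraries in the clusters drawn. The unnamed clusters 7, 8 and 10 are not drawn, and in cluster 8 the A10 over A0 ratio of Speer2 was 1.78.

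The A10 excess of Speer1 was seen in every cluster with at least 50 cells of each library. In the 15 clusters the A10 over A0 ratio of Speer1 was 2.04 (cluster 17) to 4.33 (cluster 6), with a median of 3.05, and all 15 intervals lay above 1. The ratio in cluster 6 rested on 21 A0 UMIs (2.68 to 7.32). Its A0 level of 2.83 CPM was near the 2.58 CPM of the Leydig-like cells of B0. For Gm5861 the ratio was 1.04 to 3.28, with a median of 2.30, and 14 of 15 intervals lay above 1. The exception was cluster 9. For the sum of the other 5 the median ratio was 1.20, with 8 intervals above 1 and 7 that held 1. Speer2, a family gene on chromosome 16 whose transcript was 87.7% identical to that of Speer1 over 949 bases, had a median ratio of 1.00 and 12 intervals that held 1. Its intervals lay below 1 in clusters 2 (0.944) and 14 (0.919) and above 1 in the unnamed cluster 8 (1.78), where the other 5 were at 1.86 and Speer1 at 2.36. In cluster 8 the Speer1 UMIs per Speer2 UMI were 0.356 in A0 (0.237 to 0.526) and 0.473 in A10 (0.333 to 0.663), and these intervals overlapped. Speer3 had a median of 0.90, also with 12. For Speer1 and Gm5861 this is the contrast that chose them, and the ratios are descriptions. The ratios of one gene over clusters come from the same pair of libraries and are not replicates.

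**Figure D3:**
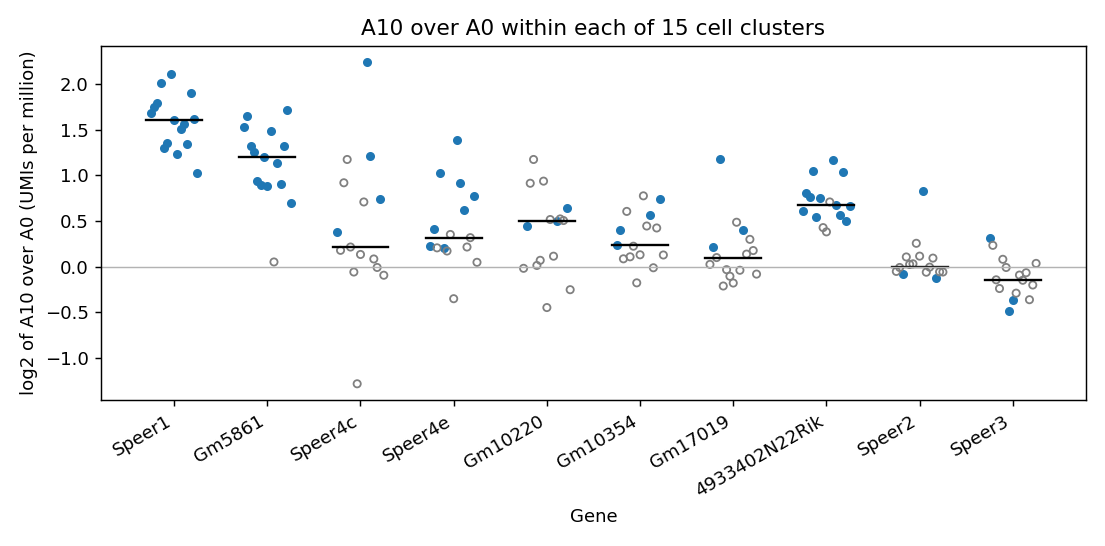
log2 of the A10 over A0 ratio of CPM within each of 15 clusters, for the 7 members and 3 relatives; each point is a cluster, filled where its 95% counting interval excludes no difference, and lines are medians over clusters. No constant was added to the CPM here. All 15 Speer1 points lie above 0, as do those of Gm5861 and 4933402N22Rik, and Speer2 lies around 0 except in cluster 8 (a ratio of 1.78).

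A relative on the same stretch of chromosome 5 shared the order of the library sums. 4933402N22Rik, named after its values were seen, starts 571757 bases beyond the end of Speer1, and its transcript was 98.3% identical to that of Speer1. It was lowest in A0 (32.8 CPM), then B0 (39.0 CPM) and A10 (57.9 CPM), and highest in BA10 (103 CPM). A10 was 1.76 times A0 (1.70 to 1.83), and the interval lay above 1 in 12 of 15 clusters. Gm6460 lies 248627 bases from Speer1 and was the remaining table gene within 500 kb of Speer1 or Gm5861, with 18 to 32 UMIs in each library. Of the other 6 genes with a Speer symbol, none was 1 log2 unit higher in A10, and their differences were -0.15 to 0.19. Of the 15 relatives without one, 11 reached 1 CPM, and their differences were -0.14 to 0.80, where 4933402N22Rik was the highest.

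The members were also set against Speer2, which was chosen after its values were seen. Speer2 was at 157 CPM in A0 and 159.7 in A10 but at 71.0 CPM in B0 and 253 CPM in BA10. Per Speer2 UMI, there were 0.197 Speer1 UMIs in A0 (0.190 to 0.203), 0.675 in A10 (0.661 to 0.689), 0.755 in B0 (0.703 to 0.811) and 0.835 in BA10 (0.820 to 0.852). A0 was lowest and B0 lay between A10 and BA10. Speer1 was chosen for a low A0 level against A10, and every comparison with A0 shares that level, so the place of A0 is a description. Gm5861 per Speer2 UMI was again lowest in A0, at 0.0628, against 0.160 (A10), 0.176 (BA10) and 0.268 (B0). With only the cells at or above 9013 UMIs, the lowest value in BA10, the Speer1 ratios were 0.198, 0.710, 0.734 and 0.835. The ratio was not constant over clusters. For Speer1 it ran from 0.107 to 0.356 in 15 clusters of A0, from 0.347 to 1.15 in 15 of A10 and from 0.439 to 1.20 in 9 of BA10, and it was 0.713 and 0.955 in the 2 clusters of B0. In cluster 15 the order of the busulfan libraries was the opposite of that of the sums, with 0.713 in B0 (0.654 to 0.777) and 0.439 in BA10 (0.400 to 0.482).

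**Figure D4:**
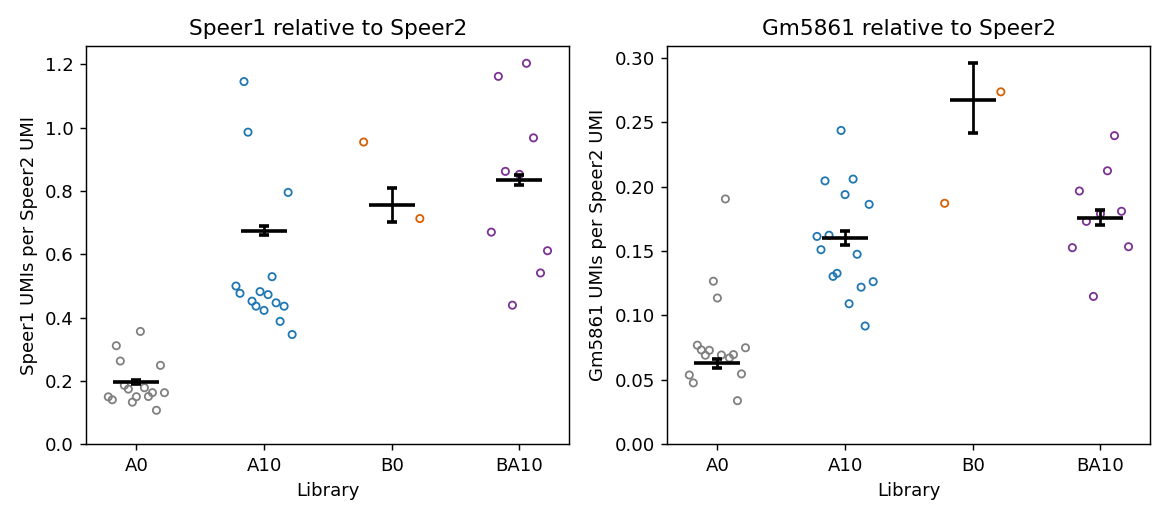
Speer1 (left) and Gm5861 (right) UMIs per Speer2 UMI in each library; open points are clusters with at least 50 cells and 100 Speer2 UMIs, and black lines are library sums with 95% counting intervals. The library sums of A0 are lowest, at 0.197 for Speer1 and 0.0628 for Gm5861.

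Spermatocyte-like cells with leading genes in common could be set side by side, again with the A0 level that the choice of Speer1 used. Cluster 3 (A0 and A10) and cluster 11 (B0 and BA10) were both spermatocyte-like and had 7 of 10 leading genes in common, Tex101, a germ cell surface protein, among them. Speer1 was at 33.9 CPM in the 351 A0 cells, 137 in the 319 A10 cells, 100.01 in the 196 B0 cells and 206 in the 413 BA10 cells. Relative to A0, these were 4.04 times (3.38 to 4.85), 2.95 times (2.34 to 3.71) and 6.06 times (5.15 to 7.19). Speer2 in the same cells was at 1.08, 0.811 and 1.37 times its A0 level, and 4933402N22Rik at 2.07, 1.87 and 2.75 times. The B0 cells were the shallowest, with a median of 4907.5 UMIs against 18130 in BA10. In BA10 the Speer1 level of cluster 11 was near the 204 CPM of the macrophage-like cluster 18 of the same library. The value of 6.06 is thus not of a level particular to spermatocyte-like cells.

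Clusters 2 and 21 gave a second pairing. Both were spermatocyte-like, but Pou5f2 was the only one of 10 leading genes they had in common, and Cd177 led cluster 21. In BA10, cluster 21 held 572 cells and was the highest cluster for Speer1, at 373 CPM (365 to 381). That was 3.61 times the A0 level in cluster 2 (3.43 to 3.80) and 1.04 times the A10 level (1.01 to 1.07). The low A0 level is again the one that chose the gene. Gm5861 in cluster 21 was 2.58 times A0 (2.32 to 2.87) and 1.03 times A10 (0.951 to 1.11). Speer2 there was 0.934 times A0 and 0.989 times A10. Fewer than 50 B0 cells were in either cluster.

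Counts per cell are given for the clusters with the highest Speer1 levels, and for A0 and A10 they are the contrast that chose the gene. In cluster 2, a cell held a median of 2 Speer1 UMIs in A0 and 10 in A10, and a cell of cluster 21 in BA10 held 14. The 90th percentile was 8 in A0, 22 in A10 and 27 in BA10. Cells without a Speer1 UMI made up 17.3% in A0, where equal levels in all cells would leave 7.16%, 5.16% in A10, where they would leave 0.150%, and 0.175% in BA10. In cluster 0, with fewer UMIs per cell, 69.0% of A0 and 37.5% of A10 cells were without one. Speer2 in clusters 2 and 21 had medians of 9, 9 and 12. Median depths were 30177.5 and 29863 UMIs in cluster 2 in A0 and A10, and 40365 in cluster 21.

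**Figure D5:**
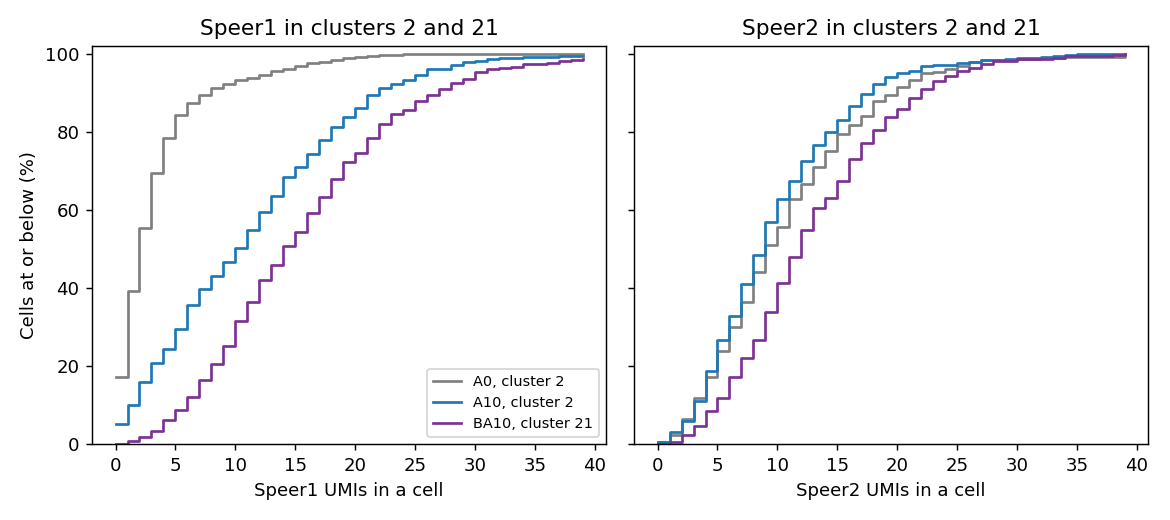
Percentage of cells at or below a number of UMIs, for Speer1 (left) and Speer2 (right), in cluster 2 of A0 and A10 and cluster 21 of BA10. The median cell holds 2, 10 and 14 Speer1 UMIs and 9, 9 and 12 Speer2 UMIs.

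In clusters 2 and 21, cells with more Speer1 also held more Gm5861. In cluster 2 of A10, Gm5861 was at 85.5 CPM in cells with more than the median of Speer1 UMIs and at 34.7 CPM in the others, and Speer2 at 329 and 291 CPM. In cluster 2 of A0 the Gm5861 levels were 32.5 and 18.1 CPM. Across cells, r between the Speer1 and Gm5861 shares of a cell's UMIs was 0.45 in the 601 A10 cells, 0.39 in the 526 A0 cells and 0.31 in the 572 BA10 cells of cluster 21, whereas between Speer1 and Speer2 it was 0.06, 0.09 and 0.13. In clusters 0 and 15 a cell held a mean of 0.463 to 1.82 Speer1 UMIs, against 3.35 to 15.6 in clusters 2 and 21, and since r is lower where counts are sparse it was not compared between clusters. With Gm5861, r was 0.20 in cluster 0 of A0, 0.094 in cluster 0 of A10 and 0.17 in cluster 15 of B0, and with Speer4e it was 0.089, 0.18 and 0.37. In clusters 2 and 21 the values with Speer4e were 0.0054 in A0, -0.085 in A10 and -0.18 in BA10. The cells of a library share its preparation, and cells with more Speer1 UMIs were deeper, at a median of 34802 against 22943 UMIs in A10.

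In B0, most family UMIs came from few cells. Cluster 15 held 10.8% of the B0 cells and 80.2% of the members' summed UMIs (79.2% to 81.2%). Those cells were deeper than the rest, at a median of 9859 UMIs against 4214 for all B0 cells. Their share of all B0 UMIs was therefore larger than their share of cells. Its leading genes were a mix of globins (Hba-a1, Hbb-b1, Hbb-b2) and genes such as Rhox8, Cst12, Cst9 and Aard, of which Aard is on the Sertoli marker list. Its highest scores, for spermatocytes (0.172) and round spermatids (0.152), were close, and no leading gene was on either list. It was therefore left unnamed. In its 501 B0 cells Speer4e was at 260 CPM, Gm10354 at 166 and Speer1 at 149, and in its 378 BA10 cells they were at 128, 57.5 and 106. All 7 members were lower in the BA10 cells of cluster 15, with ratios from 0.241 for Speer4c to 0.707 for Speer1, while Speer2 was 1.15 times higher (1.07 to 1.24). In BA10, 42.7% of the members' UMIs came from cluster 25 and 29.8% from cluster 21. Cluster 25 was spermatocyte-like with a low score (0.178), and both groups of members were present in it, Speer1 at 168 and Speer4e at 110 CPM.

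Clusters named as somatic-like were taken as the background. The unnamed cluster 12, led by stromal genes, was not among them, and its 118 BA10 cells held 207 CPM of Speer1. In the 2905 Leydig-like cells of B0, with a median of 4044 UMIs, 0.998% had a Speer1 UMI and the level was 2.58 CPM. The level in somatic-like clusters was higher in BA10. Its 60 cells of the macrophage-like cluster 18, with a median of 14277.5 UMIs, held 204 CPM of Speer1 and 401 CPM of the 7 members together, close to the 394 CPM of the whole library, and 65.0% of them had a Speer1 UMI. That cluster was named from all its cells, 458 of 530 from B0. Speer2 was at 239 CPM in its BA10 cells and at 22.9 CPM in its B0 cells. Whether these BA10 cells carried germ cell RNA or were misplaced germ cells was not tested. In BA10, 51 cells of the Leydig-like cluster 19, with a median of 9634 UMIs, held 29.9 CPM of Speer1. In cluster 22, Leydig-like with a low score (0.276), 77 BA10 cells with a median of 17631 UMIs held 162 CPM (144 to 182), from 303 UMIs. Over all cells, 25.2% in A0 (95% Clopper-Pearson interval 24.3% to 26.1%), 45.5% in A10 (44.6% to 46.5%), 11.3% in B0 (10.4% to 12.3%) and 77.9% in BA10 (76.5% to 79.2%) had a Speer1 UMI. Thinned to 5000 UMIs per cell, which left out 3235 B0 cells, the shares were 10.3%, 26.4%, 23.5% and 48.9%. In A0 and A10 no somatic cluster reached 50 cells, and in their elongating spermatid-like cluster 9, with median depths of 9747 and 8539 UMIs, 3.93% and 9.65% of cells had a Speer1 UMI.

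Genes outside the family were those that were not members, had no Speer symbol and were not relatives by transcript sequence. More distant relatives were therefore not excluded. Those with the most similar pattern over the 48 sums were taken from 13535 genes. For Speer1 they included Spats1, Rsph3a, Ccdc108 and Them6 (r = 0.91 to 0.92). For Gm5861 they included Rsph3a, also on the Speer1 list, and Lypd8, Cox8c and Mpi (0.89 to 0.92). For the sum of the other 5 they were Gm3476, LOC105242399, Gm6408, 4930555G01Rik and Gm6650 (0.92 to 0.94), of which none was on the Speer1 list. Multicopy genes of the sex chromosomes were at low counts, with Slx at 0.355 to 1.28 CPM and Slxl1 at 0.164 to 0.424, and Sly and Ssty2 at most at 0.197. Dlg5, from which the family derives, was at 3.16 and 3.15 CPM in A0 and A10, and at 5.96 and 4.82 CPM in B0 and BA10.

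Near-identical copies limit how far a single member can be read. Only reads placed at one gene are counted, so a UMI from a stretch shared by copies is not assigned to either. Windows of 100 bases, 401 per gene, were taken from the last 500 bases of each gene's longest annotated transcript, where these libraries read. Of these, 67.6% for Speer1, 73.3% for Gm5861 and 71.3% for Speer4c were found letter for letter in the transcript of another gene. It was 40.9% for Gm17019, 26.7% for Gm10354, 8.23% for Gm10220 and 0% for Speer4e and Speer2. Speer4e was still not free of shared stretches, because windows of Speer4c, Gm10354 and Gm17019 were found in a Speer4e transcript. The shared Speer1 windows were found in other genes, none of them in Gm5861 or 4933402N22Rik. Gm5861 did share windows with 4933402N22Rik, which was not itself counted in this way. As near-identical copies, Speer1, Gm5861 and 4933402N22Rik remain uncertain as separate genes. Their shared direction is not taken as 3 independent observations.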

How the data were processed

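Testis cells of 4 libraries were measured by droplet 3′ RNA sequencing. Per the methods and labels, the authors counted UMIs with Cell Ranger 2.2.0 on mm10, removed cells with fewer than 200 genes and genes in fewer than 3 cells, and normalised with Seurat. The deposited values are on a natural log scale: UMIs of a gene were divided by those of the cell, multiplied by 10000, raised by 1 and logged. Whole UMIs were recovered from all values above 0 (100% within 0.001), summed per library or cluster and divided by their total to give CPM. Every column was mapped to a group by its prefix.

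With 1 library per group no test was made. Intervals are exact Poisson for levels, Clopper-Pearson for shares and exact conditional binomial for ratios (scipy 1.17.1). UMI totals set the precision given beside each value. Cells were clustered with scanpy 1.11.5 (2000 variable genes without the family, 30 components, 15 neighbours, Leiden resolution 1) and named "-like" from marker lists. The name was withheld where more leading genes were on another list than on that of the best score. On a rule set after the clusters were seen, it was also withheld in 2 further cases. These were close scores with no leading gene on the list of the best score, and stromal genes in the lead. Scrublet marked 8.06%, 8.66%, 0.0859% and 1.27% of A0, A10, B0 and BA10 cells as doublets; they were kept, and left out as an alternative. Transcripts (GENCODE M21) were aligned with BLAST 2.17.0, and relatives had at least 90% identity over 500 bases. The calculation of pooled ratios was checked on simulated counts. Alternatives covered the added constant, weighting, depth, doublets, gene filter and clustering settings. All 7 members were named, with relatives, neighbours within 500 kb and the 5 most similar genes, of which 1 is not reported here. The members and lists were chosen with earlier results of these data known. Protein sequences were not used here.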

Additional observations from a re-analysis of the deposited data

Results flagged for a closer look

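In 4 members the AOS libraries differed from their controls in opposite directions without and with busulfan, each interval excluding no difference. Of 10895 genes, 9.34% were likewise higher in A10 over A0 and lower in BA10 over B0, and 18.0% were the other way round. Of the 2426 genes higher in A10 over A0, 42.0% were lower in BA10 over B0, and nothing particular to the members is read from their count. For Speer4c the log2 difference was 0.32 for A10 over A0 and -1.07 for BA10 over B0, so that the second was lower by 1.40 (BA10 over B0 minus A10 over A0, -1.40). For Gm10354 the 2 values were 0.24 and -0.63, and their difference was -0.87. For Gm10220 they were 0.15 and -0.51, with a difference of -0.67. For Speer4e they were 0.27 and -0.17, with a difference of -0.44. With 1 library per group, the difference between the 2 effects was not tested. All 4 values are sums over cells. In B0, 62.4% of cells were Leydig-like and 80.2% of the members' UMIs came from cluster 15, and the part of this cell mix in the result was not tested. When each cell counted equally, BA10 over B0 was above 0 for all 4, at 0.28 for Speer4c, 0.82 for Gm10354, 0.61 for Gm10220 and 1.28 for Speer4e. With cells of at least 9013 UMIs, A10 over A0 was 0.15 for Speer4c, 0.11 for Speer4e, 0.090 for Gm10354 and 0.046 for Gm10220, and BA10 over B0 was -2.36, -1.49, -1.94 and -1.63 in the same order. Within cluster 15 the ratio of BA10 to B0 stayed under 1, from 0.241 for Speer4c to 0.493 for Speer4e. Other clusters varied. For the members other than Speer1 and Gm5861 summed, the ratio was 0.313 in cluster 12. It was 2.01 in cluster 11, from 10 B0 UMIs, 2.70 in cluster 18 and 9.10 in cluster 19.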

How the results depend on the processing

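No paired analysis was possible because each group is 1 library. The members' summed log2 difference against A0 was 0.77 (A10), 0.63 (B0) and 1.32 (BA10), while BA10 over B0 was 0.70. With 10 CPM added, A10 over A0 was 0.74 and BA10 over A0 1.28. With each cell counted equally, A10, B0 and BA10 over A0 were 0.60, -0.50 and 1.21 and BA10 over B0 1.71, and with every Speer gene added 0.38, -0.066, 0.88 and 0.95. With cells of at least 9013 UMIs, of which B0 had 448, B0 over A0 was 2.02, BA10 over B0 -0.67 and BA10 over A0 1.35. Thus BA10 over B0 changed direction at the depth limit, and B0 over A0 with equal cells and with every Speer gene; the cause was not tested. Of 112 values for single members, 11 reversed a difference whose interval excluded 0, all in comparisons with B0. With cells counted equally these were, in B0 over A0, Speer1 (-0.085), Speer4c (-0.066), Speer4e (-0.51) and Gm10354 (-0.40), and in BA10 over B0, Speer4c (0.28), Speer4e (1.28), Gm10220 (0.61) and Gm10354 (0.82). At the depth limit they were Gm17019 in B0 over A0 (1.12), and Gm5861 (-0.21) and Gm17019 (-0.92) in BA10 over B0. Differences whose interval held 0 also changed sign: Gm17019 in A10 over A0 from 0.045 to -0.086 and Gm10220 in B0 over A0 from -0.094 to 1.06 at the depth limit, and Speer4c in BA10 over A0 from -0.019 to 0.028 there and to 0.21 with cells counted equally. Leaving out doublets kept all 28 member values within their intervals.

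Genes at least 1 log2 unit apart depended on the filter. From 6 higher and 12 lower in A10 over A0, there were 3 and 4 at 10 CPM or more and 1 and 0 with 10 CPM added. From 6678 higher in B0 over A0, the counts were 4307 and 3378, and lower genes went from 2775 to 1809 with 10 CPM added. BA10 over B0 went from 2037 to 1335 higher with 10 CPM added and from 6123 lower to 3835 and 2893. BA10 over A0 went from 1950 higher to 1151 and 440, and from 2154 lower to 1190 with 10 CPM added. The leading cluster differed in size between the clustering settings below. It held 6.22% (resolution 2) to 23.5% (resolution 0.5) of the A0 and A10 cells, against 16.2% in the main setting. The members' level in it was 422 to 683 CPM, against 564 in the main setting. Its share of the members' A0 and A10 UMIs was 32.9%. It was 42.2% at resolution 0.5, 14.6% at resolution 2, 36.1% with 1000 and 25.7% with 3000 variable genes, 15.2% with A0 and A10 clustered alone, 29.4% without doublets, 31.5% with thinned cells and, in an alternative added after seeing the data, 22.1% without relatives.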
